A study of Mus musculus with 4 samples.

Results

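The genes described here are 36 genes of glycolysis and of the hypoxia response, listed by name and not by a cutoff on measured values. Earlier results of these data were known when the list was made. A gene was measured where a probe set carried its symbol and no other, and where a gene had several such probe sets the brightest over the 4 arrays stood for it. This gave values for 31 of the 36 genes, out of the 14652 genes tested. Ero1l, which the annotation lists under its current symbol Ero1a, was matched through that synonym. Aldoa, Bnip3l and Ankrd37 occur only in probe sets that also list another gene, and Gpi1 and Eno1 were not matched, so these 5 genes are not analysed here. All 31 measured genes lay above the intensity filter, a log2 value of 2.91. They comprise 13 glycolytic enzymes, 5 flux regulators and transporters, 5 regulators of the hypoxia-inducible factor HIF and 8 other HIF targets.

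The cells were dendritic cells grown in culture from the bone marrow of C57BL/6 mice, antigen-presenting cells of the innate immune system. On day 7 they were given 0.3 µM sulforaphane in DMSO, or DMSO by itself. Sulforaphane is a plant isothiocyanate and a known activator of NRF2, the transcription factor of the antioxidant response. After 2 h, both groups received 100 ng/ml of Escherichia coli lipopolysaccharide (LPS) for 1 h, and no group without LPS was analysed here. Each group had 2 arrays, and the labels give no separate mice or cultures for them, so p-values reflect the spread among these arrays only, and that spread may be technical.

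Glycolysis converts glucose to pyruvate in the cytosol and yields ATP without oxygen. Glucose enters through the transporter encoded by Slc2a1, hexokinases trap it as glucose phosphate, phosphofructokinase commits it to the pathway, and lactate leaves through the transporter encoded by Slc16a3. Dendritic cells stimulated through Toll-like receptors increase glycolysis early after contact with the ligand, and HIF is a main transcriptional activator of glycolytic genes. When oxygen is present, prolyl hydroxylases of the Egln family mark the HIF alpha subunit, and the VHL protein then directs it to the proteasome. Egln3, Bnip3, Vegfa and many glycolytic genes are themselves HIF targets.

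Values are on the log2 scale of the deposited table, so that a difference of 1 is a doubling. DMSO replicate 1 stood apart from the other arrays, with an interquartile range of 3.41 against 3.61 to 3.62. Over all tested genes the SD of the difference between the DMSO arrays was 0.261, and DMSO replicate 2 was about as far from sulforaphane replicate 1 (0.266). As a check of the treatment, all 8 listed NRF2 targets were higher after sulforaphane without overlap between the groups (median difference 0.80), and 1 of them, Osgin1, passed the test. Among all tested genes 24.0% were higher without overlap, and 0.130% passed the test in either direction. The dendritic cell markers Itgax (11.26 in DMSO) and H2-Ab1 (11.55) were bright, and all 12 measured markers of the type lay above the filter. Between the groups, 6 of these 12 were lower without overlap and 3 higher (H2-Ab1 0.26, H2-Aa 0.16 and Itgax 0.066), against 19.5% and 24.0% of all genes. An unadjusted limma p under 0.05 was found for 5 of the 12, all lower, against 13.0% of all genes (5.87% lower). These were Irf4 (-0.87), Batf3 (-0.64), Ciita (-0.46), Flt3 (-0.42) and Zbtb46 (-0.34), none past the adjusted threshold. The summed linear level of the 12 was 10858 to 11943 in DMSO and 11659 to 11815 after sulforaphane. Also above the filter were 11 of 11 neutrophil markers, 7 of 7 mast cell and basophil markers, 9 of 9 macrophage and monocyte markers and 1 of 5 T and NK cell markers. The same held for 3 of 4 B cell markers, all dim, and 2 of 3 erythroid and megakaryocyte markers, of which Pf4 was bright (mean 9.64). Among the mast cell and basophil markers, Fcer1a (mean 3.65) and Ms4a2 (4.61) were dim. The filter lay below the median of every array (3.24 to 3.27), so passing it does not by itself show expression. The summed linear level of the macrophage markers was 10983 to 11329 in DMSO and 10219 to 10275 after sulforaphane, with 9 of 9 members below 0 (median difference -0.12). Of the 9, 6 were lower without overlap, against 19.5% of all genes. An unadjusted limma p under 0.05 was found for 3 (Vcam1 -0.78, Ccr2 -0.51 and Mertk -0.39), against 5.87% of all genes lower. None passed the adjusted threshold. For mast cell and basophil markers the sum was 1973 to 2029 and 1793 to 1923, with 6 of 7 below 0 (median -0.070). Hdc (-0.615) and Gata2 (-0.57) were the lowest of these. The others were nearer 0: Ms4a2 -0.11, Mcpt8 -0.070, Fcer1a -0.050, Kit -0.0071 and Cpa3 0.015. For neutrophil markers the sum was 8561 to 10157 and 9188 to 10261. In bulk samples, fewer cells of a type and less RNA per cell cannot be told apart.

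After sulforaphane, mRNA of hexokinase 2 (Hk2) measured 1.61-fold lower and that of the prolyl hydroxylase Egln3 1.43-fold lower, but neither passed the test over all genes. The glucose and lactate transporters, the phosphofructokinase subunits and lactate dehydrogenase A had smaller differences below 0. The enzymes Tpi1, Gapdh, Pgk1 and Pkm, and the HIF targets Vegfa, Adm and Ndrg1, had differences near 0. Of the 8 other HIF targets, 3 did not overlap between the groups, 2 lower and 1 higher (37.5%, against 43.6% of all genes). Of the 31 genes, 0 passed an adjusted p of 0.05 by limma, and of all tested genes 0.130% did (0.0683% lower, 0.0614% higher). For 3 of them (Hk2, Egln3 and Slc16a3), all lower, the unadjusted p was under 0.05, as it was for 13.0% of all genes (5.87% lower, 7.09% higher). With an intensity trend in the variance, which called 249 genes in place of 19, Hk2 and Egln3 passed with adjusted p of 0.0299 and 0.0330.

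In all, 20 of the 31 genes lay below 0 and 11 above, with a median of -0.066, while 45.8% of all tested genes lay below 0 and their median was 0.018. DMSO and sulforaphane arrays did not overlap for 16 of the 31 genes (51.6%), 12 lower and 4 higher. Among all tested genes 43.6% did not overlap, 19.5% lower and 24.0% higher. At a size of at least 1.5-fold without overlap stood 1 of the 31, Hk2, beside 2.81% of all genes (1.49% lower, 1.32% higher). The 95% interval of the difference included 0 for 28 of the 31 genes.

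**Figure D1:**
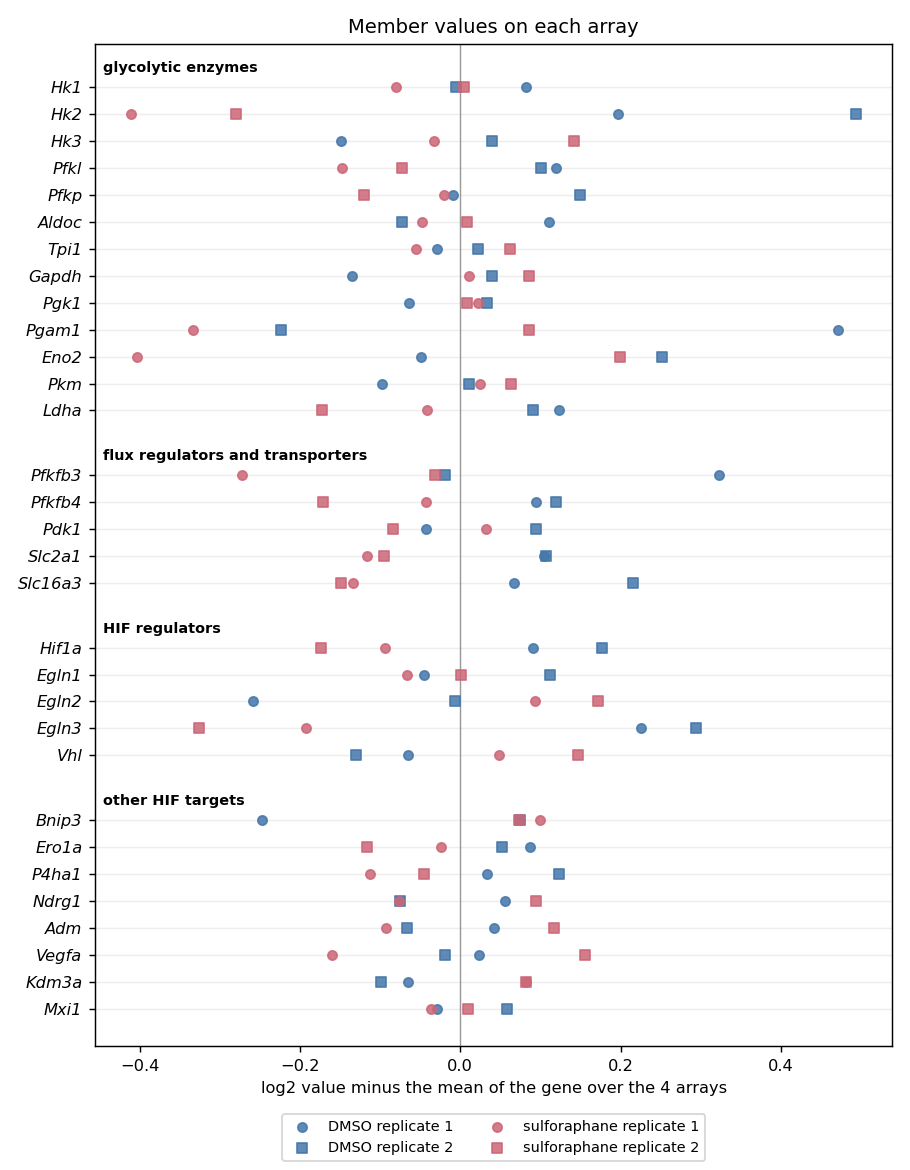
The log2 value of each of the 31 genes on each array, as the deviation from that gene's mean over the 4 arrays (horizontal axis), by role. Circles and squares mark replicates 1 and 2, blue DMSO and red sulforaphane; the groups are widest apart for Hk2 and Egln3, and Pgam1 is spread within both groups.

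The 18 measured glycolytic enzymes, flux regulators and transporters had a median difference of -0.17, with 13 below 0 and 5 above. In 8 of them both sulforaphane arrays lay below both DMSO arrays, and in 1 of them above, so 9 of 18 did not overlap, near the share of 43.6% of all tested genes (19.5% lower, 24.0% higher). Without sulforaphane replicate 1 the median was -0.074, and averaging the probe sets of each gene gave -0.11. Sums of macrophage and of mast cell markers were lower on the sulforaphane arrays (values above). Dendritic cell markers were split, with 6 of 12 lower without overlap and 3 higher, and their sum overlapped between the groups. The part of such marker differences in the glycolytic values, or in the values of single genes below, was not tested.

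Hexokinases catalyse the first step, and Hk2 is the isoform that stimuli induce in many cell types. Hk2 measured 9.06 and 9.36 on the DMSO arrays and 8.45 and 8.58 on the sulforaphane arrays. Both sulforaphane arrays were low, and the gap between the groups exceeded the spread within either. Here and below, the SE is that of limma, which pools the variance of a gene with that of all tested genes. The difference was -0.69 ± 0.14 (SE, n = 2 per group), with a 95% interval of -1.03 to -0.35 and an adjusted p of 0.142 by limma over all genes. Leaving out any array kept it between -0.84 and -0.54. Hk1, the isoform of most resting tissues, measured 7.53 and 7.44 in DMSO and 7.37 and 7.45 after sulforaphane (difference -0.076, interval -0.34 to 0.19). Hk3, found mainly in myeloid cells, measured 8.83 and 9.02 in DMSO and 8.95 and 9.12 after sulforaphane (0.11, interval -0.20 to 0.42). The groups overlapped for both Hk1 and Hk3.

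The value of Hk2 minus Hk1 within an array was 1.53 and 1.91 in DMSO and 1.08 and 1.13 after sulforaphane. This difference of -0.61 had an exact two-sided permutation p of 0.333, the smallest that 2 against 2 arrays allow, and an adjusted p of 0.444 over the 4 paralog pairs compared. It ran from -0.81 to -0.42 with an array left out.

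**Figure D2:**
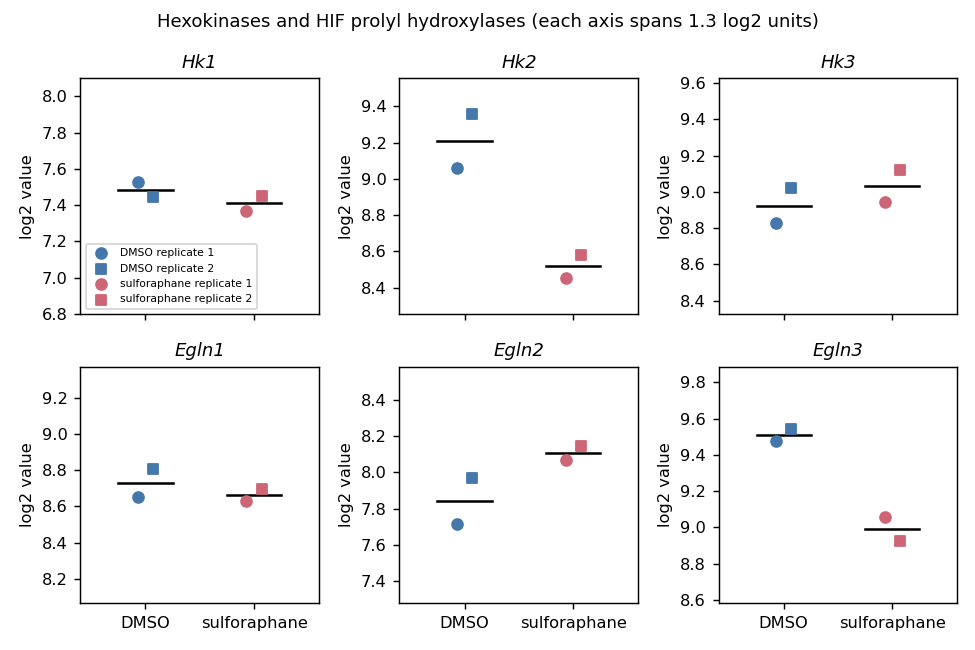
The log2 values of the 3 hexokinase genes and the 3 HIF prolyl hydroxylase genes on each array, with a bar at the mean of each group (n = 2). Each vertical axis spans the same number of log2 units; the groups are far apart for Hk2 and Egln3, and overlap for Hk1, Hk3 and Egln1.

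Phosphofructokinase catalyses the committed step. Its liver-type subunit Pfkl measured 9.10 and 9.08 in DMSO and 8.83 and 8.91 after sulforaphane, without overlap (difference -0.22 ± 0.11 SE, adjusted p = 0.463 by limma). The platelet-type subunit Pfkp measured 10.93 and 11.09 in DMSO and 10.92 and 10.82 after sulforaphane (-0.14), and the nearest arrays of its groups almost met. Pfkfb3 and Pfkfb4 are bifunctional enzymes that make the sugar bisphosphate which activates phosphofructokinase. Pfkfb3 measured 6.47 and 6.13 in DMSO and 5.87 and 6.11 after sulforaphane (-0.30 ± 0.16, adjusted p = 0.497), and without DMSO replicate 1 its difference was -0.13. Pfkfb4 measured 6.88 and 6.90 in DMSO and 6.74 and 6.61 after sulforaphane (-0.21 ± 0.11, adjusted p = 0.495). Neither passed, although both sulforaphane arrays were the lower ones for each. The within-array value of Pfkfb3 minus Pfkfb4 differed by -0.091 between the groups, with an exact two-sided permutation p of 0.667, and with an array left out it ran from -0.28 to 0.094.

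The enzymes after this step had differences on either side of 0. Aldoc, an aldolase, measured 8.83 and 8.65 in DMSO and 8.67 and 8.73 after sulforaphane (-0.039). Triose phosphate isomerase, Tpi1, differed by 0.0071 (interval -0.26 to 0.28) and phosphoglycerate kinase, Pgk1, by 0.031 (-0.23 to 0.29). Gapdh, the dehydrogenase often taken as a reference gene, measured 11.78 and 11.96 in DMSO and 11.93 and 12.00 after sulforaphane (0.096). The other bright probe set of Gapdh differed by 0.13 and the dim one by 0.12. Pyruvate kinase, Pkm, measured 11.38 and 11.49 in DMSO and 11.51 and 11.54 after sulforaphane (0.087, interval -0.18 to 0.35). Pkm was the 1 glycolytic enzyme whose groups did not overlap in the upward direction, by a small margin. The neuronal enolase Eno2 was dim, at 3.89 and 4.19 in DMSO and 3.53 and 4.14 after sulforaphane (-0.20). Several of these enzymes have processed pseudogenes of near-identical sequence, and probes shared with them could not be told apart here.

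Phosphoglycerate mutase, Pgam1, had no settled direction. The probe set used measured 10.17 and 9.47 in DMSO and 9.36 and 9.78 after sulforaphane, a difference of -0.25 with an interval of -0.87 to 0.38. Its second probe set was as bright (mean over the arrays 9.70 for both) and measured 9.51 and 9.72 in DMSO and 9.82 and 9.73 after sulforaphane, a difference of 0.16. Without DMSO replicate 1 the first probe set differed by 0.099.

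Lactate dehydrogenase A, Ldha, which turns pyruvate into lactate, measured 9.11 and 9.08 in DMSO and 8.95 and 8.82 after sulforaphane. Its groups did not overlap, with a difference of -0.21 ± 0.11 SE (adjusted p = 0.495 by limma). The lactate exporter Slc16a3 measured 9.58 and 9.72 in DMSO and 9.38 and 9.36 after sulforaphane. Both sulforaphane arrays were low, and the difference was -0.28 ± 0.11 with an interval of -0.56 to -0.0072 and an adjusted p of 0.379. The glucose transporter Slc2a1 measured 11.49 and 11.50 in DMSO and 11.27 and 11.29 after sulforaphane. Its replicates differed by less than the groups did, and its difference was -0.21 ± 0.10 (interval -0.47 to 0.044, adjusted p = 0.471). The SDs within its groups were 0.0012 in DMSO and 0.014 after sulforaphane, so this SE came mainly from the variance of other genes. Slc2a1 stayed between -0.22 and -0.20 with any array left out. Pdk1, the kinase that keeps pyruvate out of the mitochondrial dehydrogenase complex, measured 5.87 and 6.01 in DMSO and 5.95 and 5.83 after sulforaphane (-0.052), with overlap.

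**Figure D3:**
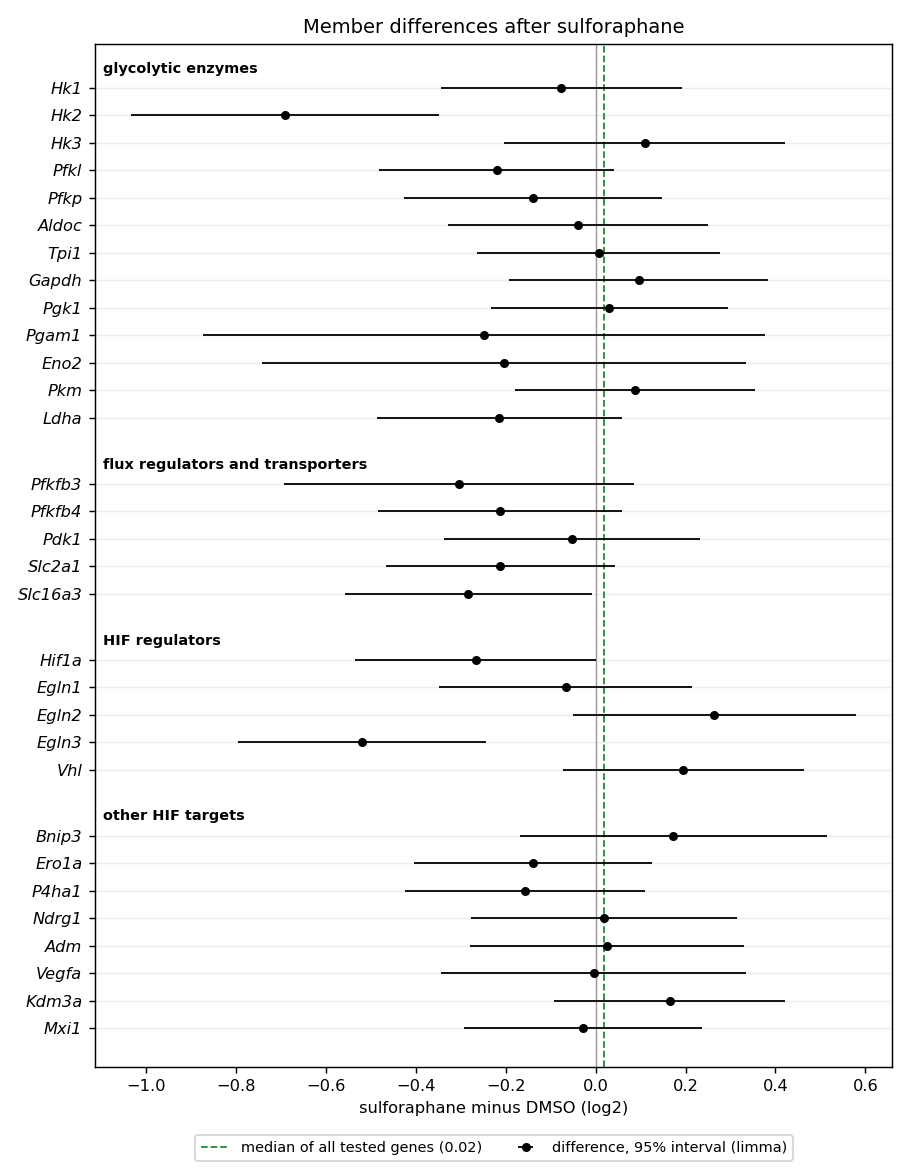
The difference between sulforaphane and DMSO on the log2 scale (points) with its 95% interval from limma (lines) for the 31 genes, by role. The dashed line is the median of all 14652 tested genes, and 28 of the 31 intervals include 0; those of Hk2, Slc16a3 and Egln3 lie below it.

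The regulators of HIF lay on both sides of 0, with 3 of 5 below 0, 2 above and a median of -0.066. Hif1a, the oxygen-regulated subunit itself, measured 9.71 and 9.80 in DMSO and 9.53 and 9.45 after sulforaphane. Its groups did not overlap, and its difference was -0.27 ± 0.11 SE (interval -0.53 to 0.0012, adjusted p = 0.388 by limma). The second, dim probe set of Hif1a differed by 0.13, so the mean of its probe sets gave -0.067. Vhl, the substrate receptor that recognises hydroxylated HIF, measured 8.09 and 8.03 in DMSO and 8.21 and 8.30 after sulforaphane (0.20 ± 0.11, adjusted p = 0.525). Both sulforaphane arrays of Vhl were the higher ones.

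Among the 3 prolyl hydroxylases, Egln3 had the lowest difference. It measured 9.48 and 9.54 in DMSO and 9.06 and 8.92 after sulforaphane. The groups were well separated, with a difference of -0.52 ± 0.11 SE, an interval of -0.79 to -0.24 and an adjusted p of 0.159. With an array left out it ran from -0.59 to -0.45. Egln2 measured 7.72 and 7.97 in DMSO and 8.07 and 8.14 after sulforaphane, higher without overlap (0.26 ± 0.13, adjusted p = 0.466). Egln1, the main oxygen sensor of most cells, measured 8.65 and 8.81 in DMSO and 8.63 and 8.70 after sulforaphane, with overlap (-0.066, interval -0.35 to 0.22). Within the arrays, Egln3 minus Egln2 differed by -0.78 and Egln3 minus Egln1 by -0.45, each without overlap between the groups. Both had an exact two-sided permutation p of 0.333, the smallest possible, and an adjusted p of 0.444 over the 4 pairs.

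The other HIF targets showed no common direction, with 4 of 8 below 0, 4 above and a median of 0.0074. Vegfa, the angiogenic growth factor, measured 8.33 and 8.29 in DMSO and 8.15 and 8.46 after sulforaphane, so that the sulforaphane arrays lay on both sides of the DMSO arrays (-0.0040, interval -0.34 to 0.34). The peptide hormone gene Adm (0.025), the stress-responsive Ndrg1 (0.019) and the MYC antagonist Mxi1 (-0.028) overlapped as well. Adm was dim (mean 4.54). Bnip3, a mitophagy receptor, measured 6.58 and 6.90 in DMSO and 6.93 and 6.90 after sulforaphane (0.17). For Bnip3 the DMSO arrays differed from each other by more than the groups did, and without DMSO replicate 1 its difference was 0.011.

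Of the 8 targets, 3 (37.5%) had groups that did not overlap, against 43.6% of all tested genes. P4ha1, a collagen prolyl hydroxylase subunit, measured 9.01 and 9.10 in DMSO and 8.87 and 8.94 after sulforaphane (-0.16 ± 0.11 SE, adjusted p = 0.615 by limma). Ero1a, the oxidase that drives disulphide formation in the endoplasmic reticulum, measured 10.90 and 10.87 in DMSO and 10.79 and 10.70 after sulforaphane (-0.14 ± 0.11, adjusted p = 0.660). The dim second probe set of Ero1a differed by 0.029. Kdm3a, a histone demethylase, measured 8.53 and 8.50 in DMSO and 8.68 on both arrays after sulforaphane (0.16 ± 0.105, adjusted p = 0.580). So 2 of the 8 were lower and 1 was higher by array order, and none passed an adjusted p of 0.05 by limma, nor an unadjusted p of 0.05 (0 of 8, against 13.0% of all genes).

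**Figure D4:**
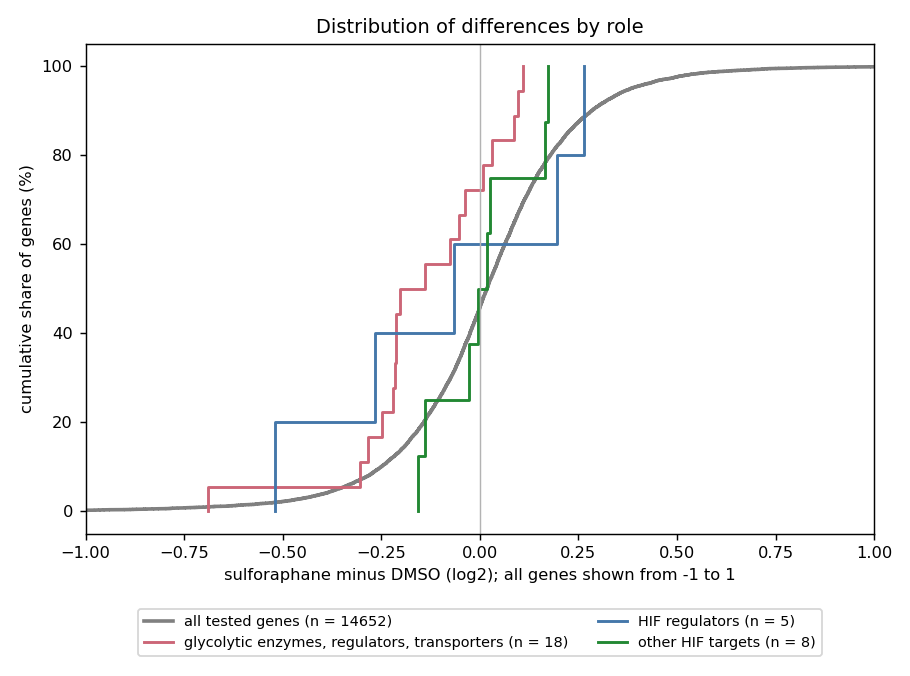
Cumulative share of genes (vertical axis, %) up to each difference between sulforaphane and DMSO (horizontal axis, log2) for the 18 glycolytic enzymes, regulators and transporters, the 5 HIF regulators, the 8 other HIF targets and all 14652 tested genes. The glycolytic curve lies left of that of all genes over most of its range, with a median of -0.17 against 0.018, while that of the other HIF targets crosses it.

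The 4 genes with the smallest unadjusted p, Hk2, Egln3, Slc16a3 and Hif1a, are shown with the 250 bases before their RefSeq start in GRCm38.p6. HIF binds short elements in such regions, and any part of HIF in the values of these genes was not tested. Capitals mark the HIF core letters ACGTG or GCGTG on either strand, which overlap where they form the palindromic E-box. The Hk2 window is chr6:82774455-82774704 on the minus strand, that of Egln3 chr12:54203875-54204124 on the minus strand, that of Slc16a3 chr11:120948817-120949066 on the plus strand, and that of Hif1a chr12:73907617-73907866 on the plus strand.
Hk2: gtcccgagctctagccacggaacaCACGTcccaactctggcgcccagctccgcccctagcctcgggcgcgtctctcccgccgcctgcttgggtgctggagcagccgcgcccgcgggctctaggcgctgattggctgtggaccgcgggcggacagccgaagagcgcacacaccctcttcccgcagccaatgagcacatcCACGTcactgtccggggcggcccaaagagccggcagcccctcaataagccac
Egln3: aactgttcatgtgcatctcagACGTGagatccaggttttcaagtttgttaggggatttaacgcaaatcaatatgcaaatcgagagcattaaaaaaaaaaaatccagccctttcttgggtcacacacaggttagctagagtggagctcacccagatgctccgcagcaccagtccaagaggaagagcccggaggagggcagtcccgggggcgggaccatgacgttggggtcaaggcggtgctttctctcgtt
Slc16a3: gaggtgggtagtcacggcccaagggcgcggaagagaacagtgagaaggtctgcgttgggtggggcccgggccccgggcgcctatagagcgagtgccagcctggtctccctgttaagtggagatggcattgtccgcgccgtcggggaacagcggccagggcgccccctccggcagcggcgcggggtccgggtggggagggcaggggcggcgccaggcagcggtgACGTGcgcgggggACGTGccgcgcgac
Hif1a: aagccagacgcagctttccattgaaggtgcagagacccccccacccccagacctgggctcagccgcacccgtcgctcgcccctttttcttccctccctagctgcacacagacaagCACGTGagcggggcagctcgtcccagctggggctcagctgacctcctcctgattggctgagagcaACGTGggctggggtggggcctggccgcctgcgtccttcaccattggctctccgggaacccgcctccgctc

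Hk2 held 2 matches, starting 226 and 52 bases before the start, and Egln3 held 1 match, 229 bases before it. Slc16a3 held 2 matches within 27 bases of the start, and Hif1a held 3, of which 2 overlap in the E-box. Of the 31 genes, 30 had a promoter entry, and 27 of these 30 held the HIF letters in at least 1 window. By window, 32 of 42 held them (76.2%), and of all 32851 RefSeq windows of the same length 38.6% did. That set includes non-coding genes and was not matched for base composition. The list was chosen to hold HIF targets, 8 of the 31 genes under that role, and the part of this choice in the share was not tested. These shares say nothing about an effect of sulforaphane. The NRF2 element letters TGACNNNGC on either strand were in 4 of the 42 windows (9.52%) and in 10.2% of all windows, and in 0 of the 4 printed ones. A match describes letters in this window, not binding.

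The rest of the pathway, listed by role with earlier results of these data known, comprised 82 further genes, of which 72 had a probe set and 65 were tested. Of the 65, 0 passed an adjusted p of 0.05 by limma, while 9 reached an unadjusted p under 0.05, 4 lower and 5 higher, a share near the 13.0% of all genes (5.87% lower, 7.09% higher). Their median difference was 0.049, with 25 below 0 and 40 above. Ddit4, an inhibitor of the growth kinase mTORC1 that hypoxia and stress induce, had the smallest p of these. It measured 8.35 and 8.05 in DMSO and 7.26 and 7.27 after sulforaphane, 1.92-fold lower (-0.94 ± 0.135 SE, interval -1.27 to -0.61, adjusted p = 0.0683).

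Among the 23 further HIF targets tested, 8 lay below 0 and 15 above, and 17 (73.9%) did not overlap, 7 lower and 10 higher, against 43.6% of all genes. After Ddit4 came Nampt, which makes the precursor of NAD, at 10.51 and 10.55 in DMSO and 11.05 and 10.98 after sulforaphane (0.49 ± 0.11 SE, adjusted p = 0.162). Narf, a nuclear prelamin-binding factor, differed by 0.62 and the mitochondrial adenylate kinase Ak4 by -0.42. Of 13 further HIF subunits and regulators, the asparagine hydroxylase Hif1an, which blocks HIF from its coactivators, had the smallest p. Hif1an measured 6.87 and 7.14 in DMSO and 7.53 and 7.43 after sulforaphane, higher without overlap (0.47 ± 0.13, adjusted p = 0.237). In the same list the ubiquitin ligase Siah2 differed by -0.25, the elongin subunit Elob by 0.26 and the HIF partner Arnt2 by -0.22, and the arrays of Elob and Arnt2 overlapped.

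Among 20 further flux regulators and transporters, enzymes acting on the pyruvate dehydrogenase complex led by p. Pdp1, the phosphatase that activates the complex, measured 6.20 and 6.46 in DMSO and 6.89 and 6.70 after sulforaphane (0.46 ± 0.14 SE, adjusted p = 0.260 by limma). Pdk4, a kinase that inactivates it, was dim, at 3.85 and 3.34 in DMSO and 2.96 and 3.06 after sulforaphane (-0.59 ± 0.18, adjusted p = 0.266). The groups did not overlap for either gene, and neither passed. The glycogen branching enzyme Gbe1 differed by 0.34 and the phosphatase Pdp2 by 0.21. Of 9 further glycolytic enzymes tested, 3 lay below 0 and 6 above, led by the mutarotase Galm (0.34 ± 0.11, adjusted p = 0.296), followed by Bpgm (0.37), the muscle-type phosphofructokinase Pfkm (0.30) and Gapdhs (-0.26). The last 3 overlapped between the groups.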

How the data were processed

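Per the labels' protocols, biotin-labelled cRNA from 4 samples was measured on Affymetrix arrays. The authors deposited log2 values. Per the submitters' processing notes, RMA and R 2.15.1 were used, and RMA subtracts background, quantile-normalizes the arrays and summarises probes; base 2 of the logarithm was inferred from RMA and the range. No source used here gives filters. There were 41345 probe sets in the table, of which 23521 had 1 gene symbol and 1814 several in the platform annotation, and 23328 of the former matched RefSeq (GRCm38.p6) by Entrez identifier.

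Each gene was represented by its brightest single-symbol probe set, and genes above the 40th percentile of all probe set means were tested. Sulforaphane was compared with DMSO with limma 3.58.1 in R 4.3.3 (2 residual and 4.02 prior degrees of freedom), with Benjamini-Hochberg adjustment over all tested genes; the code was tested on simulated data. Paralog pairs were compared by exact permutation. The number of arrays limits the precision. The genes, lists and roles were chosen with earlier results of these data known. The naming rule took every listed gene, with full statistics for the 3 of smallest p in each role, and up to 4 per role among further pathway genes, where some are given by difference only; Pfkfb3 and Vhl have full statistics outside it, chosen after their values were seen. Alternatives covered the filter, scaling, probe set choice, eBayes options, a replicate block and each array left out.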

Additional observations from a re-analysis of the deposited data

How the results depend on the processing

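The number of genes past an adjusted p of 0.05 by limma, 19 here (9 higher, 10 lower), was 249 with an intensity trend, 138 with the filter at the 60th percentile, 106 with a second quantile normalization (34 higher, 72 lower), 34 with probe sets averaged per gene and 0 with any array left out, where 1036 to 2850 genes had an unadjusted p under 0.05. Of the 31 genes, 2 passed with the trend and 0 in every other setting that kept all arrays. When an array was left out, 1 to 2 stood at 1.5-fold without overlap. Groups separate more easily when 1 of them is a lone array. No share of all genes was computed for these settings, and the 2.81% above is not comparable. The genes counted also changed. Egln3 joined Hk2 at -0.586 without sulforaphane replicate 1, and without DMSO replicate 2 it was Pgam1 (-0.595), not Hk2 (-0.541). With the replicate number as a block 8 genes passed, none of the 31; the deviations of same-numbered arrays correlated at -0.081 over genes, and the labels do not say that the numbers pair samples. The median of glycolytic enzymes, regulators and transporters was -0.11 with averaged probe sets, -0.15 with median centring, -0.20 with a second quantile normalization and -0.13 to -0.074 with an array left out. That of the other HIF targets was -0.073 to 0.12 with an array left out, and that of the further pathway genes 0.0091 to 0.060, or 0.0020 with a second quantile normalization. Of the 31 genes, 20 kept their sign in all 13 settings, Hk2, Egln3, Slc16a3, Slc2a1 and Hif1a among them. Much of this was fixed in advance: the filter, the eBayes options, the replicate block and the use of every probe set leave a gene's difference unchanged. Where the groups do not overlap, as for the genes just named, leaving out an array cannot reverse the sign. A second quantile normalization turned Adm to -0.032, Pgk1 to -0.020 and Tpi1 to -0.025, and median centring turned Vegfa to 0.017. With an array left out, the difference ran from -0.080 to 0.13 for Adm, -0.13 to 0.053 for Aldoc, -0.14 to 0.012 for Egln1, -0.50 to 0.098 for Eno2, -0.072 to 0.016 for Mxi1, -0.067 to 0.10 for Ndrg1, -0.12 to 0.016 for Pdk1, -0.59 to 0.099 for Pgam1, -0.018 to 0.080 for Pgk1, -0.052 to 0.066 for Tpi1 and -0.16 to 0.15 for Vegfa. The change of Pfkfb3 minus Pfkfb4 ran from -0.28 to 0.094; the settings for paralog pairs were chosen after seeing the data. A fit without an array assumes that the lone sample varies like the other group. The causes of these changes were not tested. No contrast of Bnip3 with Bnip3l was run, since Bnip3l had no probe set of its own.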
